A study of Arabidopsis thaliana with 18 samples.

Results

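Cell division in plants is driven by cyclin-dependent kinases (CDKs), which act only when bound to a cyclin and are held back by small inhibitor proteins. The genes described here are 40 such genes of Arabidopsis thaliana, out of 24532 genes in the deposited table. They were taken by gene identifier, with earlier results of these data known. They comprise 7 A-type, 9 B-type and 10 D-type cyclins, 5 kinases (CDKA;1 and 4 CDKB genes) and 9 inhibitors (KRP1 to KRP7, SIM and SMR1). All 40 were in the table, and 39 passed the filter on low counts. CYCD7;1, known for its role in the last division that makes a stomatal guard cell pair, had 0 counts in all 17 libraries and was not tested.

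Roots were sequenced as stranded mRNA libraries from 3 genotypes, each at 150 mM NaCl and at 0 mM NaCl. C4 and B2 are each 1 transgenic line that carries the isoprene synthase cDNA of Eucalyptus globulus, with its own transit peptide, behind the promoter of the Rubisco small subunit gene rbcS-1A, which is known mainly for activity in green tissue. WT is the genotype that the labels name for the other libraries. The growth protocols also mention a control with the empty vector and lower NaCl concentrations, and they give neither plant age nor duration for 150 mM NaCl. C4 had 3 libraries at each concentration, B2 had 3 at each, and WT had 2 at 150 mM and 3 at 0 mM. The comparisons ask how these genes responded to NaCl in each genotype, and whether C4 or B2 differed from WT.

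D-type cyclins with CDKA;1 are known to phosphorylate RBR1, the retinoblastoma-related protein, which frees E2F factors to turn on the genes of DNA replication. A-type cyclins act from S phase to mitosis, and B-type cyclins with CDKB kinases act at the entry into mitosis, where many of their genes are controlled by MYB3R factors through the mitosis-specific activator (MSA) element. KRP proteins bind and inhibit cyclin-CDK complexes, and SIM and SMR1 belong to a plant family of inhibitors known for starting endoreduplication, the copying of DNA without division.

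WT columns 1 and 2 at 0 mM were equal in 24515 of 24532 genes, differed by less than sampling noise, and were counted as 1 sample. Libraries held 54233853 to 91527683 counts. Nothing in the labels ties each library to plants of its own, so a p-value here reflects library-to-library spread alone, and that spread may be technical. The library labelled B2 0 mM, library 3, had 96.8 CPM (counts per 1000000 counts of the library) of ANNAT3 and 0.0499 CPM of MRD1, whereas the other libraries labelled B2 had 0.458 to 1.36 CPM of ANNAT3 and 36.3 to 43.1 CPM of MRD1. The library labelled WT 150 mM, library 2, had 33.4 CPM of MRD1, against 0.0965 to 2.06 CPM in the other libraries labelled WT. Its ANNAT3 was 76.0 CPM, against 89.4 to 177 CPM in those other WT libraries. Libraries labelled C4 had 59.3 to 180 CPM of ANNAT3 and 32.8 to 44.0 CPM of MRD1. The B2 library goes against its label in both genes and the WT library in MRD1 alone, so results are also given without them.

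The promoters of the members that the results turn on are shown first, because the MSA core stood in most A- and B-type cyclins and had the most copies in a gene of another family, KRP1. Each window holds the 300 bases before the gene start, read 5′ to 3′ on the strand of the gene from the RefSeq copy of the TAIR10 genome. Capitals mark AACGG or its reverse complement CCGTT, the core of the MSA element, and ACGTG or its reverse complement CACGT, the core of the abscisic acid response element (ABRE). CYCB1;2 (chr5:1861704-1862003, minus strand) and CYCB2;3 (chr1:7137829-7138128, minus strand) are B-type cyclins that moved in opposite directions under salt. CYCA1;1 (chr1:16777353-16777652, minus strand) had the lowest adjusted p among the cyclins. CDKB1;2 (chr2:16152173-16152472, plus strand) had no AACGG in its window. KRP1 (chr2:9978091-9978390, minus strand) held 6 copies.
CYCB1;2: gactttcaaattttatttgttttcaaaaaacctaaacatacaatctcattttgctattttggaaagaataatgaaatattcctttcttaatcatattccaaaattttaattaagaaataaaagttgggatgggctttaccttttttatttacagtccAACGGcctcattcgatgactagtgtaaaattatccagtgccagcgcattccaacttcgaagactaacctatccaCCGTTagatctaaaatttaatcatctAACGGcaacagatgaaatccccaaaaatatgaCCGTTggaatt
CYCB2;3: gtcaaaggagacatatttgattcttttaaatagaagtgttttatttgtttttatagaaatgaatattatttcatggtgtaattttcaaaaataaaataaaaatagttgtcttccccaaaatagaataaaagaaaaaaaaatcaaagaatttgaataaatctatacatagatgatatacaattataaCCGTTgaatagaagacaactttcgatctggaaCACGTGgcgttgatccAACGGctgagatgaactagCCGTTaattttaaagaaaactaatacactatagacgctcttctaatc
CYCA1;1: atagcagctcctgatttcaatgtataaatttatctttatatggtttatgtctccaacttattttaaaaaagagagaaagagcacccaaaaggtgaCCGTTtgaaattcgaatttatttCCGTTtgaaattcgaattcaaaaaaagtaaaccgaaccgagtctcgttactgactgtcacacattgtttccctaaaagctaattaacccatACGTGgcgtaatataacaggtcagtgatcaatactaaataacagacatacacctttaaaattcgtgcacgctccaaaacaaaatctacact
CDKB1;2: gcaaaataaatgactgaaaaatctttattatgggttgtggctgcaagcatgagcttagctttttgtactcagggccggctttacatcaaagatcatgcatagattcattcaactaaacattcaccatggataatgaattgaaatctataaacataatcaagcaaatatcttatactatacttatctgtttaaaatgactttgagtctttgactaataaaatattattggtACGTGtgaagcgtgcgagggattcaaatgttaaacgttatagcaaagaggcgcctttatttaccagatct
KRP1: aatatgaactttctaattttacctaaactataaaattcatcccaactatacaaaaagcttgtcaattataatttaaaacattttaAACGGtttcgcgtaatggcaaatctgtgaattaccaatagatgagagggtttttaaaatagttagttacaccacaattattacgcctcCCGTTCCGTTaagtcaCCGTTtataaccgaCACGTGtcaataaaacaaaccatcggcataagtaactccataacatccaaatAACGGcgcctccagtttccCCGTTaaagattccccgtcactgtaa

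AACGG stood on either strand in 23.6% of the 24527 windows read across the genome and in 18 of the 40 members. It stood in 7 of 9 B-type cyclins, 4 of 7 A-type cyclins, 5 of 9 inhibitors, 1 of 10 D-type cyclins and 1 of 5 kinases. At least 2 copies were found in 4.64% of all windows and in 12 members, 6 of them B-type cyclins. CYCB1;2 held 4 copies and CYCB2;3 held 3. In KRP1 the 6 copies began at -215, -127, -122, -111, -45 and -26, counted from -1 for the base before the gene start. ACGTG stood in 26.2% of all windows and in 13 members. In CYCB2;3, CYCD3;3 and KRP1 it lay in the palindrome CACGTG, which matches ACGTG on both strands with overlap. The E2F words TTTCCCGC, TTTCGCGC, TTTGCCGC and TTTGGCGC, searched on both strands, stood in 1.59% of all windows and in CYCD3;3 alone among the members. These matches are descriptions of letters and not shown binding sites.

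**Figure D1:**
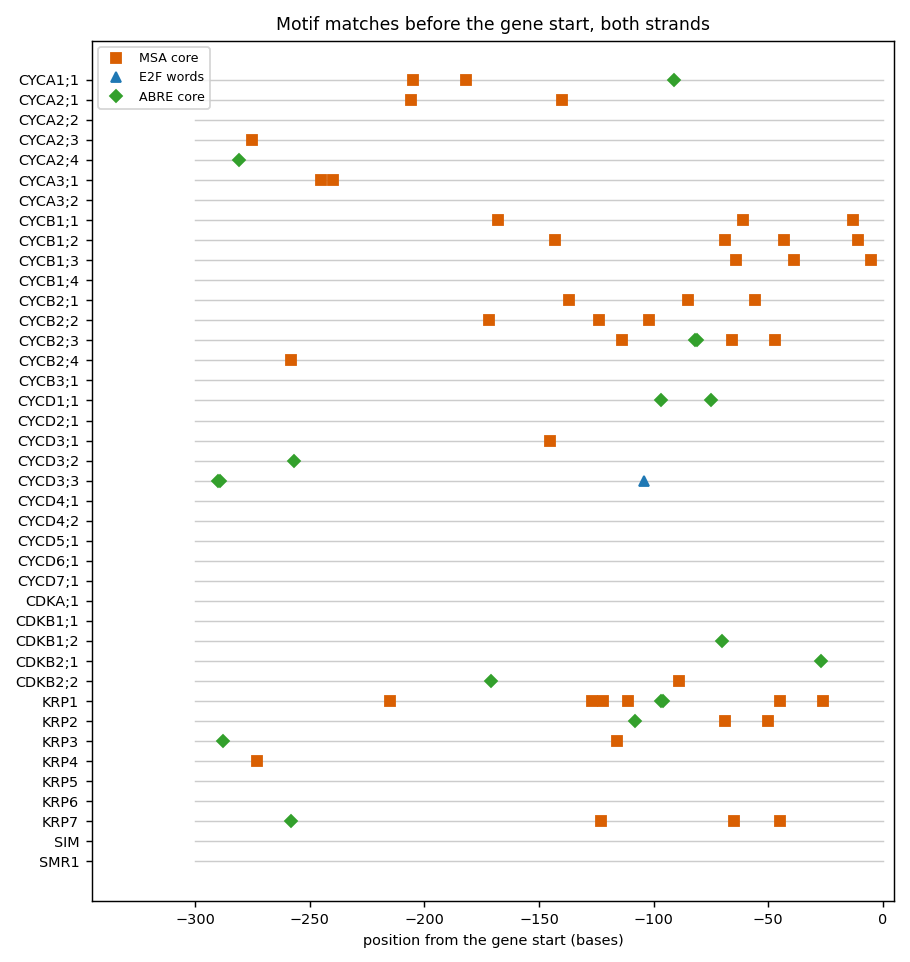
Positions of matches to the MSA core (squares), the E2F words (triangles) and the ABRE core (diamonds) in the 300 bases before the start of each of the 40 genes, where the x axis is the distance from the gene start in bases. The MSA core appears in 7 of 9 B-type cyclins and 6 times in KRP1, and in 1 of 10 D-type cyclins.

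Per length of exon, the inhibitor SIM and the kinase CDKA;1 were at the highest levels of the family. SIM, known for stopping division in trichomes, averaged 55.2 CPM per kb over the 6 groups, with libraries from 44.5 to 65.1. CDKA;1, the main kinase of the plant cell cycle, averaged 36.0 CPM per kb, with libraries from 31.7 to 41.8, all below those of SIM. CYCD2;1 (19.3 CPM per kb), KRP2 (19.2) and CDKB2;1 (17.8) came next, and their library ranges overlapped. The B-type cyclins lay between CYCB2;3 at 8.97 and CYCB2;1 at 2.05 CPM per kb. The lowest levels among the tested members were 1.27 CPM per kb for CYCD4;2, 1.15 for KRP7 and 0.564 for CYCA2;1. The last also varied most between libraries of a group, with a within-group SD of 0.539 on the log2 scale, against 0.0896 for the kinase CDKA;1, the lowest of the family.

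**Figure D2:**
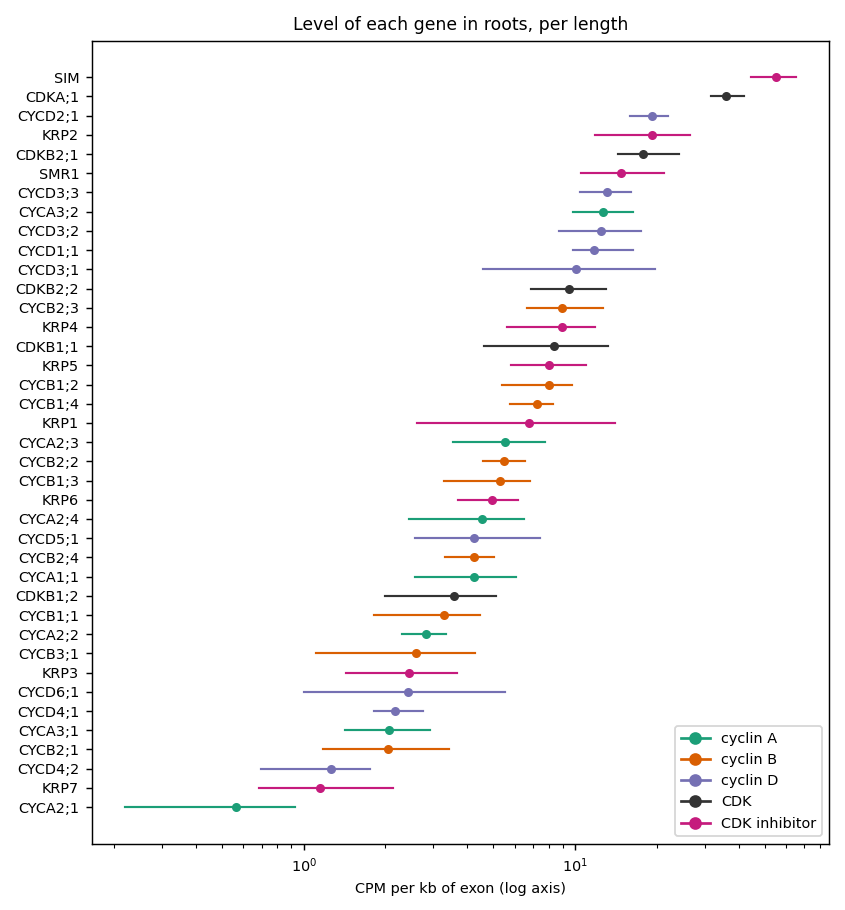
Level of the 39 detected genes in CPM per kb of exon (log axis), with the mean of the 6 group means as a point and the range over 17 libraries as a line, and colours give the family. SIM and CDKA;1 stand highest at 55.2 and 36.0 CPM per kb, and CYCA2;1 lowest at 0.564.

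Over the mean of the genotypes, KRP1, KRP4, CYCB2;3 and CYCB2;1 were higher and 10 members were lower at 150 mM than at 0 mM NaCl. Those 10 were the D-type cyclins CYCD3;1 and CYCD5;1, the A-type cyclins CYCA1;1 and CYCA3;1, the B-type cyclins CYCB1;1 and CYCB1;2, the kinases CDKB1;1 and CDKB1;2, and the inhibitors KRP2 and KRP5. In edgeR's quasi-likelihood test, with p adjusted over all 21367 genes tested and called under 0.05, 14 of 39 tested members passed, which is 35.9%, against 42.1% of all genes tested. The 4 higher members stand beside 21.5% of all genes called higher and the 10 lower members beside 20.5% called lower. With both directions together, the share of members called was thus a little below the share of all genes. By direction, members were called lower more often than higher, while all genes were split nearly evenly, and this contrast was not tested. The median log2 change was -0.14 over the members and -0.0098 over all genes. In bulk roots, fewer cells of a type and less RNA per cell cannot be told apart.

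Of the 39 tested members, 1 (KRP1) had 8 libraries at 150 mM that did not overlap its 9 libraries at 0 mM, against 9.22% of all genes tested. Overlap within a genotype is described below for single members, and its share over all genes was not computed. Without the libraries labelled B2 0 mM 3 and WT 150 mM 2, 12 members passed, 11 of them among the 14, and the other was CYCD6;1 (log2 -0.67, adjusted p = 0.0272). CDKB1;1 (adjusted p = 0.0764), CYCB1;2 (adjusted p = 0.13) and CYCA3;1 (adjusted p = 0.096) then missed the threshold in edgeR's test. These 3 and CYCB2;1 missed it in at least 1 of 17 fits that each left out 1 library, and the other 10 passed in all 17. DESeq2 called all 14 and 4 more, which were CYCD6;1, CYCA2;1, KRP7 and KRP3, all lower. Over all alternative runs of this comparison 7883 to 9793 genes were called, against 8987 in the main fit.

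Within single genotypes fewer members passed. In C4 it was 2, both lower, against 12.1% of all genes called in either direction, 6.69% higher and 5.44% lower. In B2 it was 6, with 2 higher and 4 lower, against 16.2% of all genes, 9.61% higher and 6.63% lower. In WT it was 5, with 2 higher and 3 lower, against 16.6% of all genes, 9.29% higher and 7.35% lower. None of these 13 calls held in every fit that left out 1 library of its genotype. In C4, 0 members passed without library 2 at 0 mM or without library 2 or 3 at 150 mM, and 1 passed without library 1 at either concentration. In WT, 0 passed without library 1 at 150 mM, 1 without library 1 at 0 mM and 2 without library 3 at 0 mM. In B2, 1 passed without library 2 or 3 at 150 mM, 2 without library 1 at 0 mM, 3 without library 3 at 0 mM, and 9 without library 1 at 150 mM.

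**Figure D3:**
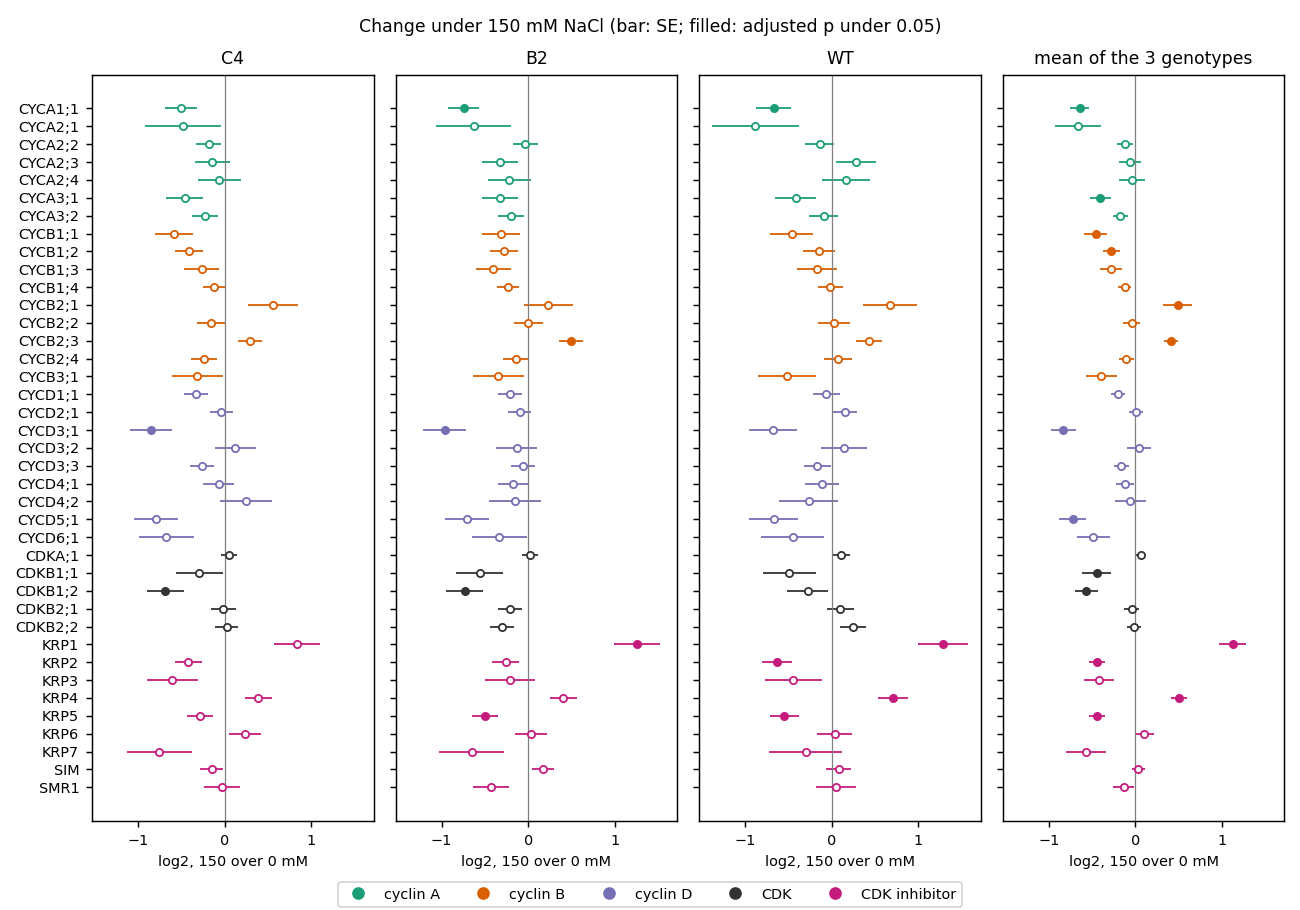
Log2 fold change of CPM, 150 mM over 0 mM NaCl, for the 39 tested genes in C4, B2 and WT and for the mean of the 3 genotypes, where points are estimates, bars are SE, and filled points passed an adjusted p of 0.05 in edgeR's test. Over the mean of the genotypes 4 genes were higher and 10 lower, with KRP1 at the right end.

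D-type cyclins link growth signals to the start of the cycle, and CYCD3;1, known as a cytokinin-responsive cyclin, fell under salt together with CYCD5;1. CYCD3;1 had 17.6, 13.8 and 15.2 CPM in C4 at 150 mM, against 23.6, 36.9 and 23.4 CPM at 0 mM. B2 libraries held 17.3, 11.7 and 8.55 CPM at 150 mM, against 29.5, 26.1 and 17.5 CPM at 0 mM, and in WT 11.2 and 13.9 CPM at 150 mM, against 22.2, 18.5 and 19.2 CPM at 0 mM. Every salt library lay below every control library of its own genotype. The gene (AT4G34160, chr4:16357421-16359565, plus strand, TAIR10) changed by -0.83 ± 0.15 (log2 fold change ± SE, adjusted p = 0.000429 by edgeR) over the mean of the genotypes, by -0.85 ± 0.25 in C4 (adjusted p = 0.0352), by -0.96 ± 0.25 in B2 (adjusted p = 0.018) and by -0.67 ± 0.28 in WT (adjusted p = 0.111). The call in C4 missed the threshold without C4 150 mM library 1, 2 or 3, or 0 mM library 2 (adjusted p = 0.0519 to 0.15 by edgeR). The call in B2 missed the threshold without B2 150 mM library 2 or 3, or 0 mM library 1 (adjusted p = 0.0661 to 0.083 by edgeR).

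CYCD5;1 had 4.99, 5.05 and 6.04 CPM in C4 at 150 mM, against 8.74, 8.93 and 10.3 CPM at 0 mM. For B2 they were 8.05, 4.76 and 6.23 CPM at 150 mM, against 9.17, 9.21 and 12.6 CPM at 0 mM, and in WT 6.96 and 5.49 CPM at 150 mM, against 9.73, 13.8 and 6.14 CPM at 0 mM. The groups overlapped in WT, where library 4 at 0 mM had 6.14 CPM, and did not overlap in C4 or B2. The change of the gene (AT4G37630, chr4:17679168-17681264, plus strand) over the mean of the genotypes was -0.72 ± 0.15 (adjusted p = 0.00139 by edgeR), and it passed in no single genotype, with adjusted p = 0.0512 in C4, 0.067 in B2 and 0.121 in WT.

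The other 7 tested D-type cyclins did not pass, so 2 of 9 (22.2%) were called, against 42.1% of all genes. CYCD6;1, known for the formative divisions of the root ground tissue, had a log2 change of -0.48 ± 0.19 (adjusted p = 0.0547 by edgeR) and spread widely, with 1.61 to 6.13 CPM at 150 mM, against 2.60 to 8.91 CPM at 0 mM. It passed without both libraries that go against their labels (-0.67, adjusted p = 0.0272), with DESeq2 (adjusted p = 0.0364) and with the nearly equal WT library kept (adjusted p = 0.0413). Leaving out 1 library, it passed without WT 0 mM library 4, WT 150 mM library 2, C4 0 mM library 3, C4 150 mM library 2 or B2 150 mM library 2 (adjusted p = 0.0244 to 0.0475 by edgeR). CYCD1;1 had a log2 change of -0.20 ± 0.083 (adjusted p = 0.0627). For CYCD2;1, the D-type cyclin at the highest level per length, the log2 change was 0.0044 with a 95% interval of -0.15 to 0.16. Within the CYCD3 subfamily, CYCD3;2 had a change of 0.045 and CYCD3;3 of -0.16 on the log2 scale, beside -0.83 for the first member, and these differences between genes were not tested.

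All 7 A-type cyclins had a log2 change below 0 over the mean of the genotypes, with a median of -0.17 against -0.0098 over all genes. Of them 2 passed, which is 28.6%, against 42.1% of all genes. In WT alone 5 were below 0 and 2 above. The latter were CYCA2;3, with means of 12.9 CPM at 150 mM and 10.6 CPM at 0 mM, and CYCA2;4, with 9.70 and 8.65 CPM. CYCA1;1 had 7.50, 7.02 and 6.20 CPM in C4 at 150 mM, against 10.2, 9.58 and 9.54 CPM at 0 mM. Roots of B2 had 7.70, 4.70 and 5.63 CPM at 150 mM, against 11.1, 10.7 and 8.53 CPM at 0 mM, and in WT 4.96 and 5.42 CPM at 150 mM, against 7.45, 9.82 and 7.50 CPM at 0 mM. In each genotype all salt libraries lay below all control libraries. The change of the gene (AT1G44110, chr1:16774765-16777352, minus strand) was -0.64 ± 0.11 on the log2 scale over the mean of the genotypes (adjusted p = 0.000266 by edgeR). It passed in B2 at -0.74 ± 0.18 (adjusted p = 0.0138) and in WT at -0.67 ± 0.21 (adjusted p = 0.0353). In C4 the change was -0.50 ± 0.18 (adjusted p = 0.0824). The call in B2 missed the threshold without B2 150 mM library 2 or 3 (adjusted p = 0.0566 to 0.0779 by edgeR). The call in WT missed the threshold without WT 150 mM library 1 or 2, or 0 mM library 1 or 3 (adjusted p = 0.0548 to 0.224 by edgeR).

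CYCA3;1 belongs to the A3 group, whose members are known for peaking around S phase. It had 3.47, 2.59 and 2.81 CPM in C4 at 150 mM, against 3.50, 4.61 and 4.09 CPM at 0 mM. In B2 the values were 2.78, 2.75 and 3.38 CPM at 150 mM, against 3.24, 3.93 and 4.02 CPM at 0 mM, and in WT 2.68 and 2.24 CPM at 150 mM, against 3.96, 3.25 and 2.66 CPM at 0 mM. The groups did not overlap in C4 and overlapped in B2 and WT. The gene (AT5G43080, chr5:17292952-17295024, plus strand) changed by -0.40 ± 0.13 (adjusted p = 0.0173 by edgeR). It no longer passed without WT 150 mM library 2 (adjusted p = 0.0608). The CYCA2 genes, known to delay endoreduplication, stood at -0.66 (CYCA2;1, adjusted p = 0.0547), -0.12, -0.061 and -0.037 on the log2 scale for the genes numbered 1 to 4, and CYCA3;2 stood at -0.17.

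Of the 9 B-type cyclins 4 passed, which is 44.4%, against 42.1% of all genes. CYCB1;1 and CYCB1;2 fell and CYCB2;1 and CYCB2;3 rose. The other 5 did not pass, and all 5 had a log2 change below 0. CYCB1;1 is widely used as a marker of cells at the G2 to M transition and is also known to be induced by DNA damage. It had 5.09, 2.96 and 5.51 CPM in C4 at 150 mM, against 7.09, 6.01 and 7.25 CPM at 0 mM. B2 libraries held 5.90, 3.99 and 4.51 CPM at 150 mM, against 6.46, 5.88 and 5.59 CPM at 0 mM, and in WT 4.77 and 3.68 CPM at 150 mM, against 5.46, 6.43 and 5.61 CPM at 0 mM. The groups did not overlap in C4 or WT, and in B2 they overlapped through library 1 at 150 mM. The gene (AT4G37490, chr4:17621886-17624308, minus strand) changed by -0.45 ± 0.13 (adjusted p = 0.0116 by edgeR) and passed in no single genotype, with adjusted p = 0.0954 in C4, 0.335 in B2 and 0.214 in WT.

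CYCB2;3 had 18.3, 19.4 and 17.2 CPM in C4 at 150 mM, against 15.3, 13.4 and 15.9 CPM at 0 mM. For B2 they were 25.5, 19.0 and 23.2 CPM at 150 mM, against 14.7, 17.7 and 15.7 CPM at 0 mM, and in WT 22.8 and 19.0 CPM at 150 mM, against 16.1, 17.1 and 13.3 CPM at 0 mM. In each genotype all salt libraries lay above all control libraries. The gene (AT1G20610, chr1:7134659-7137828, minus strand) rose by 0.41 ± 0.082 on the log2 scale over the mean of the genotypes (adjusted p = 0.000972 by edgeR). It passed in B2 at 0.49 ± 0.14 (adjusted p = 0.0254), and the changes in C4 and WT were 0.30 and 0.43 (adjusted p = 0.178 and 0.0631). The call in B2 missed the threshold without B2 150 mM library 1 or 3, or 0 mM library 1 or 3 (adjusted p = 0.0606 to 0.0965 by edgeR).

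CYCB2;1 had 3.01, 4.02 and 4.69 CPM in C4 at 150 mM, against 3.28, 2.72 and 1.96 CPM at 0 mM. Roots of B2 had 4.03, 3.48 and 4.29 CPM at 150 mM, against 3.38, 3.29 and 3.37 CPM at 0 mM, and in WT 5.71 and 2.40 CPM at 150 mM, against 2.55, 2.95 and 2.16 CPM at 0 mM. The groups overlapped in C4 and WT, and WT library 1 at 150 mM was the highest of all. The gene (AT2G17620, chr2:7664055-7666522, plus strand) changed by 0.49 ± 0.17 (adjusted p = 0.0298 by edgeR). Without WT 150 mM library 1 the change was 0.23 (adjusted p = 0.251). It also missed the threshold without WT 0 mM library 4 (adjusted p = 0.051), C4 0 mM library 3 (0.0595), C4 150 mM library 3 (0.063) or B2 150 mM library 3 (0.0561), with edgeR's adjusted p in each case.

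CYCB1;2 had 9.80 to 16.8 CPM at 150 mM, against 14.0 to 17.8 CPM at 0 mM, and changed by -0.28 ± 0.098 (adjusted p = 0.0317 by edgeR). It missed the threshold without WT 0 mM library 3, WT 150 mM library 2, C4 150 mM library 2, B2 0 mM library 3 or B2 150 mM library 3 (adjusted p = 0.052 to 0.082). This gene and CYCB2;3 both carry several MSA cores in the windows printed above, and their salt changes had opposite signs. The count of the CYCB2 gene over that of the CYCB1 gene within a library lay between 1.28 and 1.94 at 150 mM, against 0.777 to 1.17 at 0 mM, a ratio chosen after its values were seen. The members that did not pass were CYCB1;3 (-0.28), CYCB1;4 (-0.12), CYCB2;2 (-0.041), CYCB2;4 (-0.10) and CYCB3;1 (-0.39 on the log2 scale, with adjusted p = 0.0872 by edgeR).

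Libraries of the same group differed among themselves in the A- and B-type cyclins, at 150 mM and at 0 mM. In WT at 0 mM, library 3 was highest in 10 of 16 of them and library 4 lowest in 10 of 16. In B2 at 150 mM, library 1 was highest in 14 of 16 of these cyclins and library 2 lowest in 14 of 16. The summed B-type cyclins were 105 CPM in B2 150 mM library 1, 73.0 CPM in library 2 and 84.7 CPM in library 3. The summed genes of DNA replication followed the same order, with 213, 120 and 136 CPM. KRP1 ran the other way in these B2 libraries, with 8.53, 16.5 and 9.59 CPM. In C4 at 150 mM, library 2 had the most KRP1 (12.7 CPM) and was lowest in 8 of 16 of these cyclins. WT at 150 mM went against this, as library 1 had more KRP1 (10.9 against 10.3 CPM) and was highest in 11 of 16. The share of all genes in such an order was not computed.

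**Figure D4:**
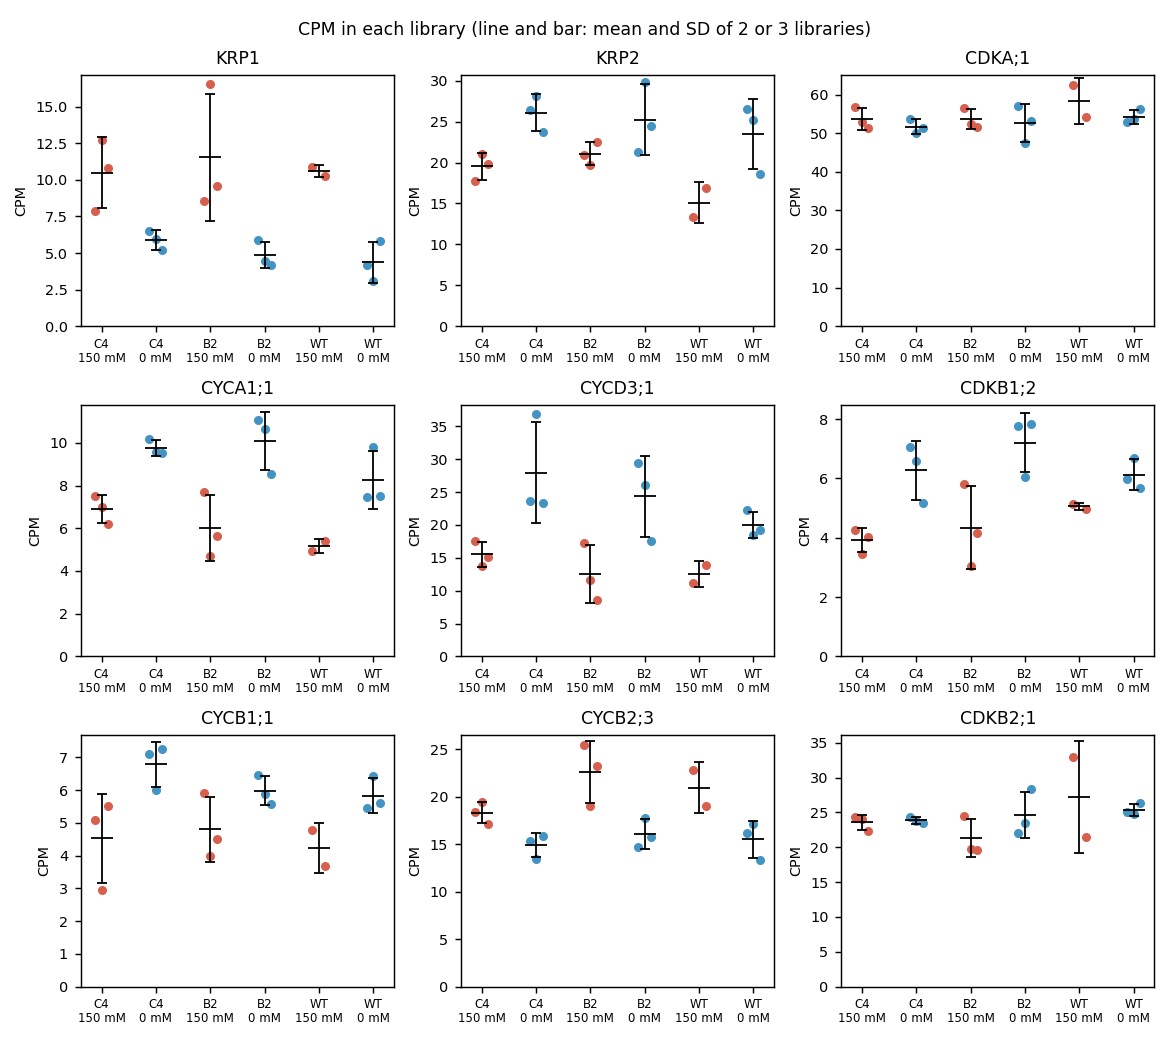
CPM of 9 genes in each library, with group means and SD as black lines, and 150 mM (red) left of 0 mM (blue) in each genotype, where each y axis starts at 0. KRP1 and CYCB2;3 sit higher at 150 mM in all genotypes, CYCA1;1 and CYCD3;1 lower, and CDKA;1 between 47.5 and 62.6 CPM throughout.

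Of the 5 kinases, both CDKB1 genes fell, and CDKA;1 and both CDKB2 genes did not pass. The share called was 40%, against 42.1% of all genes. CDKA;1 had 56.8, 52.8 and 51.4 CPM in C4 at 150 mM, against 53.8, 50.1 and 51.2 CPM at 0 mM. In B2 the values were 56.5, 52.4 and 51.7 CPM at 150 mM, against 57.1, 47.5 and 53.2 CPM at 0 mM, and in WT 62.6 and 54.1 CPM at 150 mM, against 52.8, 53.6 and 56.3 CPM at 0 mM. The groups overlapped in every genotype. The gene (AT3G48750, chr3:18071454-18074641, plus strand) had a log2 change of 0.062 ± 0.057, with a 95% interval of -0.049 to 0.17 (adjusted p = 0.402 by edgeR). It was 0.054 in C4, 0.025 in B2 and 0.11 in WT.

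CDKB1 kinases are plant-specific and act at the G2 to M transition. CDKB1;2 had 4.25, 3.46 and 4.02 CPM in C4 at 150 mM, against 7.06, 6.60 and 5.16 CPM at 0 mM. B2 libraries held 5.81, 3.04 and 4.17 CPM at 150 mM, against 7.76, 6.05 and 7.83 CPM at 0 mM, and in WT 5.15 and 4.96 CPM at 150 mM, against 5.99, 6.70 and 5.69 CPM at 0 mM. All salt libraries lay below all control libraries in each genotype. The gene (AT2G38620, chr2:16152473-16154086, plus strand) changed by -0.56 ± 0.13 over the mean of the genotypes (adjusted p = 0.00229 by edgeR). It passed in C4 at -0.68 ± 0.21 (adjusted p = 0.0466) and in B2 at -0.73 ± 0.21 (adjusted p = 0.0297), and in WT the change was -0.28 ± 0.24 (adjusted p = 0.458). The call in C4 missed the threshold without C4 150 mM library 1, 2 or 3, or 0 mM library 1 or 2 (adjusted p = 0.0719 to 0.165 by edgeR). The call in B2 missed the threshold without B2 150 mM library 2 or 3, or 0 mM library 1 or 3 (adjusted p = 0.0776 to 0.136 by edgeR). The difference between C4 and WT in this response did not pass (log2 -0.40, adjusted p = 1).

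CDKB1;1 had 6.38 to 13.6 CPM at 150 mM, against 10.1 to 18.2 CPM at 0 mM, with a log2 change of -0.45 ± 0.16 (adjusted p = 0.0393 by edgeR). It passed in 7 of the 17 fits that each left out 1 library and missed the threshold in 10, with adjusted p up to 0.105. Those 10 left out WT 0 mM library 1 or 3, C4 0 mM library 2 or 3, WT 150 mM library 1, C4 150 mM library 1 or 2, B2 0 mM library 3, or B2 150 mM library 2 or 3. The CDKB2 genes, known for their place in meristems, had 95% intervals of -0.21 to 0.13 (CDKB2;1, estimate -0.041) and -0.17 to 0.15 (the second gene, estimate -0.011). The summed CPM of both CDKB1 genes over that of both CDKB2 genes lay between 0.264 and 0.521 in libraries at 150 mM, against 0.397 to 0.615 at 0 mM. These ranges overlapped.

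Among the inhibitors, KRP1 and KRP4 rose, KRP2 and KRP5 fell, and the other 5 did not pass. The share called was 44.4%, against 42.1% of all genes. KRP1, also called ICK1, is known to be inducible by abscisic acid. It had 7.91, 12.7 and 10.8 CPM in C4 at 150 mM, against 6.51, 5.98 and 5.20 CPM at 0 mM. For B2 they were 8.53, 16.5 and 9.59 CPM at 150 mM, against 5.86, 4.47 and 4.19 CPM at 0 mM, and in WT 10.9 and 10.3 CPM at 150 mM, against 4.16, 3.08 and 5.84 CPM at 0 mM. Every salt library lay above every control library, across genotypes, from 7.91 CPM upward at 150 mM and up to 6.51 CPM at 0 mM. KRP1 (AT2G23430, chr2:9976590-9978090, minus strand) rose by 1.12 ± 0.16 on the log2 scale over the mean of the genotypes (adjusted p = 5.36e-05 by edgeR), the lowest adjusted p of the family. It rose by 1.25 ± 0.27 in B2 (adjusted p = 0.00785) and by 1.28 ± 0.29 in WT (adjusted p = 0.00872), and in C4 the change was 0.83 ± 0.27 (adjusted p = 0.0519). The call in B2 missed the threshold without B2 150 mM library 2 (adjusted p = 0.061 by edgeR). The call in WT missed the threshold without WT 150 mM library 1 (adjusted p = 0.0921 by edgeR). The highest KRP1 level, 16.5 CPM, was in B2 150 mM library 2, the library in which 14 of 16 A- and B-type cyclins were lowest in their group. In WT at 150 mM, the library with more KRP1, library 1, was instead highest in 11 of 16 of them. A relation between KRP1 and these cyclins across libraries was not tested.

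KRP4 is known for its part in setting cell size in the shoot meristem. It had 25.6, 20.9 and 23.2 CPM in C4 at 150 mM, against 17.9, 19.2 and 16.0 CPM at 0 mM. Roots of B2 had 21.6, 25.6 and 24.8 CPM at 150 mM, against 17.0, 21.5 and 15.9 CPM at 0 mM, and in WT 28.2 and 27.7 CPM at 150 mM, against 13.4, 16.6 and 21.2 CPM at 0 mM. The groups did not overlap in any genotype. KRP4 (AT2G32710, chr2:13873362-13876737, plus strand) rose by 0.50 ± 0.094 over the mean of the genotypes (adjusted p = 0.000549 by edgeR) and by 0.71 ± 0.17 in WT (adjusted p = 0.0121). The changes in C4 and B2 were 0.39 and 0.41 (adjusted p = 0.12 and 0.0875). The call in WT missed the threshold without WT 150 mM library 1, or 0 mM library 1 (adjusted p = 0.0543 to 0.112 by edgeR).

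KRP2 is known to restrain the divisions that start lateral roots. It had 17.7, 21.1 and 19.8 CPM in C4 at 150 mM, against 26.4, 28.1 and 23.7 CPM at 0 mM. In B2 the values were 20.9, 19.7 and 22.5 CPM at 150 mM, against 21.3, 29.9 and 24.5 CPM at 0 mM, and in WT 13.3 and 16.9 CPM at 150 mM, against 26.6, 25.2 and 18.6 CPM at 0 mM. The groups did not overlap in C4 or WT and overlapped in B2. KRP2 (AT3G50630, chr3:18800306-18801595, plus strand) changed by -0.44 ± 0.093 (adjusted p = 0.0014 by edgeR), and in WT alone by -0.63 ± 0.17 (adjusted p = 0.0216). The call in WT missed the threshold without WT 150 mM library 1, or 0 mM library 1 or 3 (adjusted p = 0.067 to 0.249 by edgeR). KRP1 over KRP2 within a library was 0.407 to 0.837 at 150 mM, against 0.122 to 0.314 at 0 mM, and these ranges did not overlap. This ratio was chosen after its values were seen. As KRP1 alone already did not overlap and KRP2 was called lower, it adds nothing to the changes of both genes.

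KRP5 had 7.27, 7.11 and 7.84 CPM in C4 at 150 mM, against 9.16, 9.50 and 8.41 CPM at 0 mM. B2 libraries held 5.92, 6.53 and 6.18 CPM at 150 mM, against 8.58, 9.71 and 8.03 CPM at 0 mM, and in WT 5.71 and 7.19 CPM at 150 mM, against 10.8, 9.64 and 7.81 CPM at 0 mM. The groups did not overlap in any genotype. KRP5 (AT3G24810, chr3:9060836-9062003, plus strand) changed by -0.44 ± 0.089 (adjusted p = 0.000946 by edgeR) over the mean of the genotypes, by -0.50 ± 0.15 in B2 (adjusted p = 0.033) and by -0.55 ± 0.17 in WT (adjusted p = 0.0347). The call in B2 missed the threshold without B2 150 mM library 1, 2 or 3, or 0 mM library 1, 2 or 3 (adjusted p = 0.0553 to 0.0957 by edgeR). The call in WT missed the threshold without WT 150 mM library 1, or 0 mM library 1 or 3 (adjusted p = 0.0854 to 0.319 by edgeR). SIM, the highest of the family per length, had a log2 change of 0.034 with a 95% interval of -0.12 to 0.19. SMR1, known for the giant cells of the sepal, had -0.14 with an interval of -0.38 to 0.11. KRP7 (-0.57, adjusted p = 0.0531), KRP3 (-0.42, adjusted p = 0.0669) and KRP6 (0.10, adjusted p = 0.489) did not pass edgeR's test.

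No member passed in C4 or B2 over WT at either concentration or in the difference of their salt responses, and edgeR called 0% of the 21367 genes in each of these 6 comparisons, where 315 to 2154 genes had an unadjusted p under 0.05. DESeq2 called 0 to 55 genes in them, and 0 members. At 0 mM, 1 of the 39 tested members had an unadjusted p under 0.05 in C4 over WT, beside 868 of the 21367 genes. In B2 over WT it was 0, beside 315 genes. At 150 mM it was 2 members in C4 over WT, beside 1377 genes, and 5 in B2 over WT, beside 2154 genes. The member in C4 at 0 mM was CYCD6;1, which had 7.92, 8.91 and 4.52 CPM in C4 at 0 mM, against 3.02, 3.54 and 2.60 CPM in WT, and these did not overlap. The log2 difference was 1.22 ± 0.32 (unadjusted p = 0.00158, adjusted p = 1 by edgeR's test across all genes). At 150 mM it had 3.08, 6.13 and 4.19 CPM in C4, against 1.61 and 2.86 CPM in WT, with a difference of 1.00 ± 0.37 (adjusted p = 0.701). B2 had 3.28, 3.62 and 1.89 CPM of the same gene at 150 mM and 3.69, 4.24 and 3.15 CPM at 0 mM. Next in C4 over WT came CYCD1;1 (0.28) and CYCD3;1 (0.49) at 0 mM, and KRP2 (0.37) and CYCA1;1 (0.41) at 150 mM.

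In B2 over WT at 150 mM the lowest p-values belonged to both CDKB2 genes and KRP2. CDKB2;2 had 12.8, 9.59 and 10.2 CPM in B2, against 18.1 and 13.3 CPM in WT, without overlap, and a log2 difference of -0.54 ± 0.15 (unadjusted p = 0.00276, adjusted p = 0.438 by edgeR's test across all genes). CDKB2;1 had 24.4, 19.8 and 19.7 CPM in B2, against 32.9 and 21.5 CPM in WT, with overlap, and a difference of -0.35 ± 0.16 (adjusted p = 0.477). Without WT 150 mM library 2, which goes against its label in MRD1, the log2 difference was -0.76 for CDKB2;2 and -0.65 for CDKB2;1. WT 150 mM then rested on library 1 alone, which was assumed to vary like the other groups and had the highest levels of both CDKB2 genes among all libraries. KRP2 had a difference of 0.48 ± 0.17 (adjusted p = 0.438). At 0 mM the 3 lowest p-values in B2 over WT were those of CYCB2;4 (0.27), CYCD4;2 (0.51) and CYCD3;3 (0.24), with an adjusted p of 1 each in edgeR's test.

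For the salt response itself, 0 members had an unadjusted p under 0.05 for C4 minus WT, beside 775 of the 21367 genes. For B2 minus WT it was 1 member, beside 967 genes. That member was CDKB2;2, with a difference of responses of -0.54 ± 0.20 (adjusted p = 0.916 by edgeR). CYCA2;3 followed with -0.60 ± 0.31 and KRP2 with 0.37 ± 0.23. For C4 minus WT the lowest p-values belonged to CYCB2;4 (-0.31 ± 0.22), CYCA2;3 (-0.42 ± 0.31) and KRP4 (-0.32 ± 0.24). The response comparisons and the line comparisons share the WT libraries.

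Around the members, on lists also chosen with earlier results of these data known, genes of DNA replication fell under salt. Over the mean of the genotypes, 9 of 10 were lower, all but MCM4, and 0 higher, with a list median of -0.54 against -0.0098 over all genes tested, of which 20.5% were called lower. MCM3, a subunit of the replicative helicase, averaged 16.8 CPM in C4, 17.5 CPM in B2 and 13.3 CPM in WT at 150 mM, against 24.7, 23.9 and 24.9 CPM at 0 mM in C4, B2 and WT (log2 change over the mean of the genotypes -0.64 ± 0.095, adjusted p = 8.44e-05 by edgeR). CDT1A, which licenses origins, changed by -0.71 ± 0.12 (adjusted p = 0.000256). PCNA1, a sliding clamp of the replication fork, changed by -0.86 ± 0.16 (adjusted p = 0.000477). In the E2F-RBR list 2 of 9 (22.2%) were called, against 42.1% of all genes, with 1 higher and 1 lower. The activator E2FB rose (0.40 ± 0.11, adjusted p = 0.00642), E2FA fell (-0.47 ± 0.13, adjusted p = 0.00942), and RBR1 stood at 0.18 (adjusted p = 0.0681).

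All 4 MYB3R genes passed, in both directions, against 42.1% of all genes. MYB3R1 and MYB3R4, known as activators of mitotic genes (MYB3R1 also represses), fell by 0.41 and 0.35 on the log2 scale (adjusted p = 0.000183 and 0.00741 by edgeR), and the repressors MYB3R5 and MYB3R3 rose, by 0.41 and 0.27 (adjusted p = 0.00304 and 0.0118). Of 8 genes of CDK activation and its control, 2 (25%) were called, against 42.1% of all genes, and both fell. These were WEE1, a kinase that inhibits CDKs (-0.65 ± 0.12, adjusted p = 0.000567), and CYCH;1, a partner of the CDK-activating kinases (-0.45 ± 0.098, adjusted p = 0.00169). Of 5 activators of the anaphase-promoting complex, which marks mitotic cyclins for destruction, 1 (20%) was called, CCS52A1, which fell (-0.31 ± 0.074, adjusted p = 0.00302).

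Of 8 measured genes of mitosis and cytokinesis, 4 (50%) were called, against 42.1% of all genes, with 1 higher and 3 lower. The kinase gene AUR3 rose (0.51 ± 0.12, adjusted p = 0.00327 by edgeR), while HINKEL, a kinesin of the cell plate, fell (-0.50 ± 0.13, adjusted p = 0.00432), as did AUR1 (-0.33 ± 0.11, adjusted p = 0.0307) and MAP65-3. Of 8 further genes on the SMR inhibitor list that were in the table, 3 (37.5%) were called, against the same 42.1%, with 1 higher and 2 lower. SMR4 averaged 0.463 CPM and changed by -1.66 ± 0.46 (adjusted p = 0.0084), AT5G59360 changed by -0.93 ± 0.18 (adjusted p = 0.000584), and AT1G08180 rose by 0.68 ± 0.20 (adjusted p = 0.0114).

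**Figure D5:**
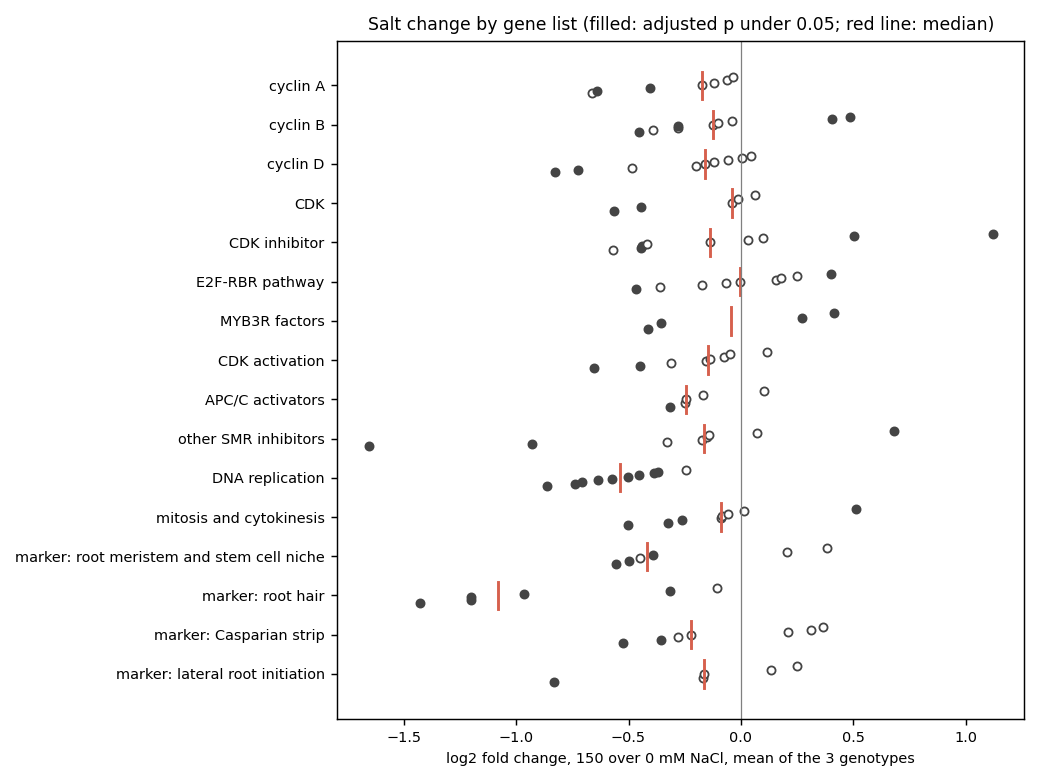
Log2 fold change, 150 mM over 0 mM NaCl, over the mean of the 3 genotypes for each gene of the 5 member families, 7 lists of cell cycle genes and 4 lists of root markers, where each point is a gene, filled where it passed an adjusted p of 0.05, and red lines are list medians. DNA replication lies below 0 throughout with a median of -0.54, while the member families have medians between -0.17 and -0.041.

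Markers of root cell types and of shoot tissue are given beside these counts, with 42.1% of all genes called and 20.5% called lower. Of 6 root hair markers 5 (83.3%) fell, and their summed level was 113 to 204 CPM at 150 mM, against 263 to 433 CPM at 0 mM. Of 6 markers of the root meristem and stem cell niche 3 (50%) fell, which were SHR (-0.50), SCR (-0.39) and PLT2 (-0.56). The log2 change was above 0 in 2 of the 6, WOX5 and AT5G48940, and neither passed. WOX5 averaged 2.12, 2.03 and 1.72 CPM in C4, B2 and WT at 150 mM, against 1.85, 1.91 and 0.931 CPM at 0 mM. The summed levels of this list overlapped, with 96.9 to 140 CPM at 150 mM and 112 to 166 CPM at 0 mM. Of 7 Casparian strip genes 2 (28.6%) fell and 3 had a log2 change above 0. Their sums overlapped, with 428 to 727 CPM at 150 mM and 459 to 714 CPM at 0 mM. Of 5 lateral root initiation genes 1 (20%) fell, GATA23 (-0.83), which averaged only 0.925 CPM, and 2 had a log2 change above 0. Sums of this list overlapped, with 13.2 to 19.8 CPM at 150 mM and 14.5 to 20.3 CPM at 0 mM. Of 6 shoot genes 4 were tested and 1 (25%) rose, LHCB2.1, with overlapping sums of 25.1 to 36.4 CPM at 150 mM and 8.59 to 34.7 CPM at 0 mM, and RBCS1B and RBCS2B at 0 in 16 of 17 libraries each. The part of these markers in the changes of the cyclins, kinases and inhibitors was not tested.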

How the data were processed

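Stranded, paired-end mRNA libraries of roots were read in 18 columns of 1 table, and 17 libraries were used. The values are whole-number counts of reads per gene, which the authors deposited without normalization. Per the file headers, they were counted with featureCounts 2.0.3 on Araport11 exons, with strand setting 2 and a minimum mapping quality of 10. Reads that map to several places were thus mostly not counted, and near-identical copies are uncertain. Per the submitters' processing notes, FastQC 0.12.1, fastp, STAR 2.7.11a and TAIR10 were used. The exon length column, deposited by the authors with the counts in bases, gave CPM (counts per 1000000) per kb.

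WT 0 mM library 2 was left out as nearly equal to library 1, and so were the 17 genes in which they differ, none of them a member. Library totals of 54233853 to 91527683 counts set the precision. Counts were scaled by TMM, filtered by filterByExpr and fitted with edgeR 4.0.16 (limma 3.58.1, R 4.3.3) with 1 mean per group over all libraries. Two-sided quasi-likelihood F tests were adjusted by Benjamini-Hochberg over 21367 genes, at a threshold of 0.05. SE is the size of the log2 fold change over the square root of F, and 95% intervals are 1.96 SE. The script was tested on simulated counts for the salt comparisons only. Of genes given a log2 change of 1, it recovered 44% in WT, 67.3% in C4 and 51.5% in B2. Over the mean of the genotypes it recovered 88.9%. Alternatives were other scaling, no filter, DESeq2 1.42.0, only the compared groups, each library left out, both doubtful libraries left out and the nearly equal library kept.

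Members and lists were chosen with earlier results of these data known. Given in full were members that passed a salt comparison, up to 12 with the lowest adjusted p, and always CDKA;1, CYCB1;1 and KRP1. In the other comparisons these were the 3 with the lowest adjusted p, and in each gene list up to 3. Promoters were read from RefSeq's copy of TAIR10, whose gene spans equalled the deposited ones in 99.7% of 24528 genes.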

Additional observations from a re-analysis of the deposited data

How the results depend on the processing

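Over the mean of the genotypes, 14 members passed, 11 to 18 when 1 library was left out, 18 with DESeq2 and 12 without both libraries that go against their labels. Across all genes the calls in this comparison ran from 7883 to 9793 over the alternatives, against 8987. In single genotypes the counts of members moved more. In WT they were 5 with all groups in the fit and 0 with only the groups compared, and 0 to 6 when 1 library was left out. In C4 they were 2, against 5 with DESeq2, 6 with only the groups compared, 4 with the nearly equal WT library kept and 0 to 2 when 1 library was left out. In B2 they were 6, against 2 with only the groups compared, 3 without both doubtful libraries and 1 to 9 when 1 library was left out. For B2 over WT at 150 mM the count was 0. It rose above 0 in fits without WT 150 mM library 2, which left 1 library in that group, so those counts are not given. The other 5 line and response comparisons gave 0 members in every alternative run. Across all genes, the calls in WT ran from 330 to 5171 over the alternatives, in C4 from 1310 to 3559 and in B2 from 703 to 5728. Of the comparisons of named members with an alternative, 748 kept their direction and side of the threshold, 80 lost the threshold, 23 gained it and 4 changed sign. The 4 were CYCB2;1 in WT (-0.0909) and CDKA;1 in WT (-0.0064) without WT 150 mM library 1, and CDKA;1 in B2 without 0 mM library 2 (-0.0505) or without 150 mM library 1 (-0.0151). Leaving out 1 library gave -0.0909 to 1.17 for the first, -0.0064 to 0.22 for the second and -0.0505 to 0.0782 for CDKA;1 in B2. The fits with fewer libraries or groups have fewer residual degrees of freedom, and the cause of any of these shifts was not tested. No paired analysis was possible because the labels give the groups no shared replicate numbers. Depth limits most the tested members with the fewest counts over all libraries, CYCA2;1 with 1460 and KRP7 with 1801.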
